A study of Mus musculus with 19 samples.

Results

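The 6 genes described here, Ercc5, Xpa, Rad23b, Msh3, Pold1 and Polh, work in excision repair, mismatch repair and DNA synthesis, and their calls were taken from the variant table of the A223 squamous cell carcinoma line. All rows whose gene name equals 1 of the 6 were kept, which gave 482 of 564674 calls and 6 of the 18200 genes with any call that is not intergenic. The members were chosen by their annotated effects, genotypes and RNA reads in this same table, as repair genes that carry exome missense calls, so the presence of such a call in each gene is how they were chosen and not a finding. The study follows CD8 T cells in mice whose A223 tumours regress or grow, and 17 of its 19 samples are single-cell or receptor libraries of those T cells, which were not used here. The other 2 are A223 cells from C57BL/6-derived stock grown in culture, whose DNA was captured on an exon chip and sequenced as 1 exome library, and whose RNA was sequenced as 1 bulk library. With 1 library of each kind there is no replicate, no treatment and no comparison of conditions, so no p-value is given. No normal DNA of the same animal is among the samples used, so an inherited difference from the reference genome and a change that arose in the tumour cells cannot be told apart.

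Nucleotide excision repair removes bulky lesions, among them the pyrimidine dimers that ultraviolet light makes in skin: a damage sensor opens the helix, a scaffold gathers the repair proteins, and a pair of endonucleases cut out the damaged strand. Mismatch repair corrects the errors that escape proofreading during replication, and DNA polymerases range from accurate replicative enzymes to translesion enzymes that copy across damage at the cost of accuracy. Inherited loss of several of these human genes causes xeroderma pigmentosum, which is known for a very high rate of skin cancer. Among the 6, Rad23b stabilises the damage sensor Xpc, Xpa is the scaffold, and Ercc5 (XPG) is the endonuclease that cuts on the 3′ side of the lesion. Msh3 is a mismatch sensor that recognises small insertion and deletion loops. Pold1 is the catalytic and proofreading subunit of the replicative DNA polymerase delta, and Polh is DNA polymerase eta, which copies across ultraviolet dimers.

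Each call carries a genotype in the exome, a genotype in the RNA, or both, where 0/1 is heterozygous (1 reference and 1 changed allele) and 1/1 is homozygous for the change. It also carries the number of RNA reads over the position, but no exome depth and no read number per allele. The labels name no genome build. All 3416 single-base reference alleles that fall in the RefSeq promoter windows of GRCm38.p6 equalled the base of that assembly, and positions are given on it. Marker genes could be looked up only where they carry a call. The keratinocyte markers Krt5, Krt14 and Trp63 had no call and therefore no read number. Of other keratins, Krt8 reached 56 RNA reads at its deepest of 4 calls and Krt18 reached 74 at its deepest of 18 calls. The squamous label was thus neither borne out nor contradicted by this table.

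The 6 genes held 174 exome calls, of which 104 were heterozygous and 70 homozygous, and 308 calls seen in RNA only (63.9%, against 62.8% of all calls in the table). Coding sequence held 44 of the exome calls. They comprised 23 missense and 21 synonymous changes, with no stop, frameshift or in-frame call in the exome of any of the 6 genes. The remaining exome calls were mostly annotated as upstream or downstream of a transcript, or as intronic. A protein-changing exome call was present in 2742 of the 18200 genes with any call (15.1%), a share that is read only as the background of the choice made here.

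**Figure D1:**
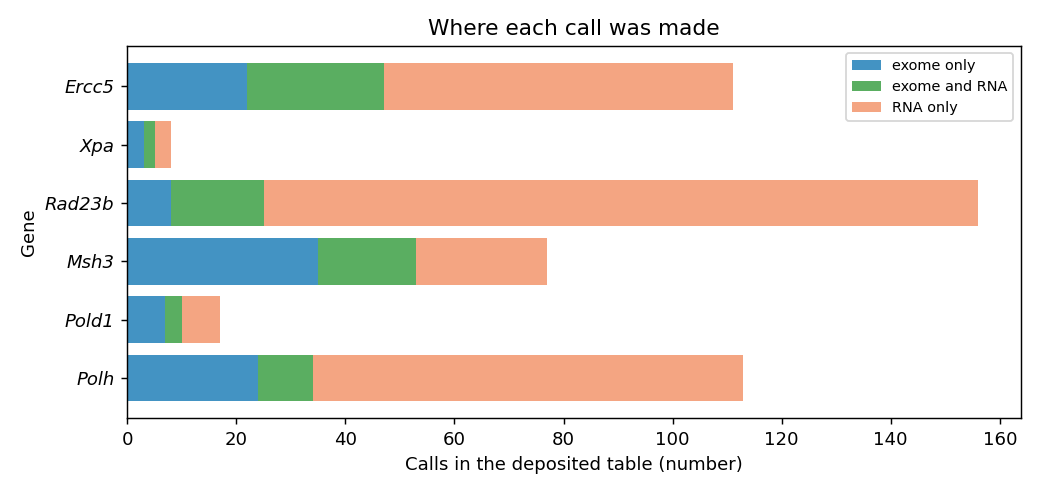
Number of calls per gene (horizontal axis) split by where the genotype was called: in the exome only, in exome and RNA, or in RNA only. Rad23b holds 131 RNA-only calls beside 25 exome calls, while Xpa, Msh3 and Pold1 have more exome than RNA-only calls.

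Zygosity differed between the genes. Every exome call was homozygous in Msh3 (53 of 53) and in Pold1 (10 of 10), whereas Ercc5 had 46 heterozygous and 1 homozygous call, Xpa 5 and 0, Rad23b 23 and 2, and Polh 30 and 4. Among all exome calls 59.8% were homozygous, and 37.2% of coding exome calls. Of the 23 missense calls in the 6 genes 5 were homozygous (21.7%), against 35.8% of 8079 missense exome calls in the table. Calls of 1 gene sit on the same stretch of chromosome and are not independent, so these shares describe 6 places and not 23 separate events.

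**Figure D2:**
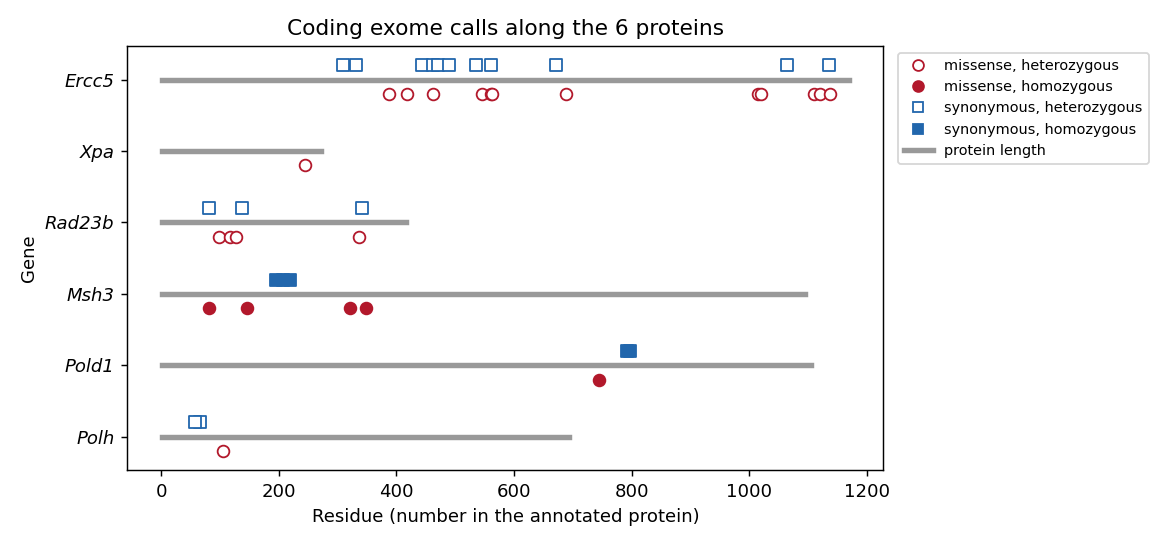
Position of each coding exome call along the annotated protein (residue number), with synonymous calls above and missense calls below a grey line that spans the protein; open symbols are heterozygous and filled symbols homozygous. Only Msh3 and Pold1 carry filled symbols, and the calls of Ercc5 fall into a group at residues 310 to 563, a pair at 671 and 688 and a group from residue 1015.

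Ercc5 carried 12 of the 23 missense changes, the most of the 6 genes, with 12 missense and 11 synonymous exome calls in a protein of 1170 residues encoded in 15 exons. Its calls spanned chr1:44149974-44185343. Exon 8, which encodes part of the long spacer between the nuclease motifs of this endonuclease, held 14 of the 23 coding calls. Of those, 6 were missense: Cys388Arg with 30 RNA reads, Gly419Arg with 28, Gly462Glu with 15, Ile545Leu with 22, Leu561Pro with 17 and Thr563Ser with 18. Exon 9 held Thr688Ile with 28 reads. The last exon held Asn1015Ser and Ile1021Met with 38 reads each, Ser1110Gly with 20, Pro1121Ser with 23 and Asp1138Gly with 28. All 12 were heterozygous in the exome and heterozygous in the RNA, so transcripts of both alleles were called at each of these residues.

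Some of the exchanges in Ercc5 were between unlike residues. On the BLOSUM62 scale, where a value below 0 marks an exchange that is rare between related proteins, 7 of its 12 changes scored below 0 (58.3%), led by Cys388Arg and Leu561Pro at -3. Of the 7, Thr688Ile, Pro1121Ser and Asp1138Gly scored -1. The corresponding share was 9 of 23 over the 6 genes (39.1%) and 38.2% over all missense exome calls. The 12 calls are linked, few, and in a gene chosen for its missense calls, so whether the shares differ was not tested. Cys388Arg, Gly419Arg, Gly462Glu and Asp1138Gly change the charge of the side chain. Coding exome calls in Ercc5 numbered 6.55 per kb of coding sequence, above 88.3% of the 4382 genes with such a call, whose median was 1.97 per kb. At 2 codons, those of Gly462 and Leu561, a missense and a synonymous call sat on neighbouring bases and were annotated separately (the table gives no phase).

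Xpa, the scaffold of the incision complex, had 8 calls within chr4:46150456-46175416 and only 1 in coding sequence. This call, at base 46175356 of chromosome 4 in the last of its 6 exons, changes residue 244 of 272, Lys244Glu, a reversal of charge near the C terminus. It was heterozygous in the exome and in the RNA, with 76 reads. The other exome calls of Xpa were noncoding, with 0 to 6 reads. At 1.22 coding calls per kb Xpa was denser than 34.8% of the 4382 genes with a coding exome call. Genes without such a call are left out, and with 1 call the value is set by coding length alone.

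Rad23b, the partner of Xpc, stood out for its RNA. The 7 coding exome calls, all heterozygous, lay in exons 4 and 9 of 10 of this 416-residue protein. Of these, 4 were missense: Ala98Thr with 730 RNA reads, Pro118Ala with 1595, Ala127Thr with 1616 and Ser337Gly with 30. The other 3 were synonymous: Thr81Thr with 311 reads, Pro137Pro with 1438 and Gly342Gly with 9. The median over these calls was 730 reads, and 99.5% of the 21505 coding exome calls in the table had fewer. That share sets a median of 7 linked positions, 5 of them in exon 4, beside single calls. The median coding call of the table had 0 reads. Within the gene the reads were uneven: exon 4 had 311 to 1616 at its 5 positions and exon 9 had 9 and 30.

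At the positions of Rad23b with most reads the RNA genotype was missing. Pro118Ala, Ala127Thr and Pro137Pro, at 1438 to 1616 reads, had an exome genotype but none in RNA, whereas Thr81Thr and Ala98Thr in the same exon, at 311 and 730 reads, were heterozygous in both. An empty RNA genotype was frequent at such depth across the table: 80.7% of the 668 exome calls with 1000 or more reads had none, against 26.3% of the 14310 calls with 20 or more. Whether the changed allele was absent from the RNA or the position was not genotyped there was not tested, because the table holds no read number per allele.

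Of the 156 Rad23b calls, spread over chr4:55346223-55392290, 131 were RNA only (84.0%), and 126 of those were heterozygous (96.2%). Among all RNA-only calls 38.3% were heterozygous, and the other genes with more than 5 of them had 54.4% in Polh, 57.1% in Pold1, 25% in Ercc5 and 8.33% in Msh3. These shares were not matched for read number. Heterozygous RNA-only calls had a median of 23 reads in Rad23b and 11 in the table, and homozygous ones 4 and 5. Whether read number accounts for the difference in shares was not tested. In Rad23b 75 RNA-only calls were annotated as upstream or downstream of a transcript (median 22 reads) and 45 as intronic (median 19 reads). Of the 75, 73 were annotated as downstream of a transcript other than that of the coding calls. Many of the 73 lay between intronic or coding calls of the gene, so this class does not mean outside the gene. The median RNA-only call of the table had 7 reads in either class. Another 9 lay in the 3′ untranslated region with 30 to 438 reads, median 300, against a table median of 29. In the same region 1 exome call had 724 reads and was heterozygous in both. A-to-G changes on the transcript strand made up 26 of 95 RNA-only substitutions in Rad23b (27.4%) and 18.1% of those in the table, while T-to-C changes made up 18.9% and 17.2%.

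**Figure D3:**
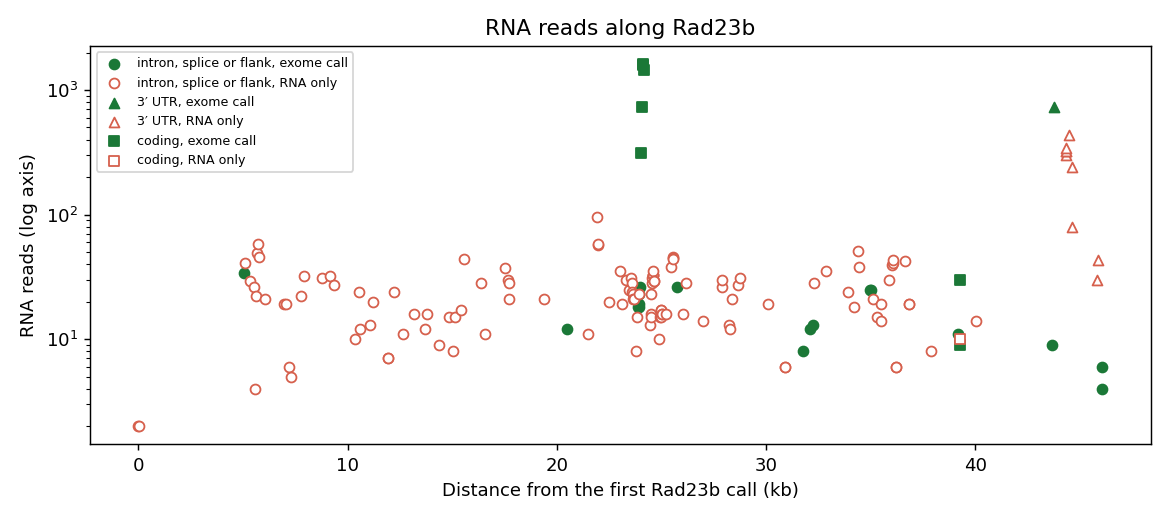
RNA reads (log axis) at each Rad23b call against distance from the first call in kb; filled green symbols have an exome genotype and open red symbols are RNA only. Most calls annotated as intronic or as upstream or downstream of a transcript lie near 20 reads along the whole gene. The coding calls of exon 4 and the 3′ untranslated region reach up to 1616.

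In RNA only, Rad23b had a heterozygous in-frame deletion, and its sequence shows the repeat it falls in. It removes 15 bases of a glycine run in exon 9, annotated Gly343_Gly347del, with 10 reads (plus strand, GRCm38, as the caller placed it; in the repeat other placements give the same product).
Rad23b in-frame deletion, chr4:55385482-55385496: ggaggaggtggtggc
The exome call Gly342Gly, at base 55385490 with 9 reads and no RNA genotype, lies inside this deleted stretch. The in-frame deletion was the only protein-changing RNA-only call of the 4 heterozygous-dominated genes Ercc5, Xpa, Rad23b and Polh.

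Msh3, the mismatch repair member, had 77 calls over chr13:92249941-92355353 and 7 coding exome calls in its 1095 residues, all homozygous and all in exons 2 to 7 of 24. The missense changes were Ala82Ser with 21 RNA reads, Ala146Val with 10, Thr321Ile with 23 and Ile348Val with 16. Ala146Val, Thr321Ile and Ile348Val were homozygous in RNA too, and Ala82Ser had no RNA genotype. The 3 synonymous calls in exon 4, at residues 195, 207 and 220, had 8 to 11 reads, and the first of them was homozygous in both. All 18 Msh3 calls with both genotypes were homozygous in both. Only Thr321Ile scored below 0 on BLOSUM62. The density of 2.13 coding calls per kb was close to the median of 1.97 among genes with a coding exome call.

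Pold1, the catalytic subunit of the replicative polymerase delta, had 17 calls over chr7:44530823-44536031 and the lowest coding density of the 6 genes, 0.904 per kb. Its missense call, Asp744Asn in exon 18 of 27, was homozygous in exome and RNA with 33 reads and removes a negative charge. The synonymous calls Glu793Glu and Phe797Phe were also homozygous in both, with 16 and 4 reads.

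All 4 remaining protein-altering calls of Pold1 were RNA-only deletions annotated as frameshift or in-frame changes, and each was as long as the intron it touches. They read Val749fs (94 bases, 30 reads), Arg904fs (76 bases, 33 reads), Arg983fs (87 bases, 44 reads) and Val1039_Ser1040del (71 bases, 35 reads). Arg904fs was called heterozygous and the other 3 homozygous, and none had an exome genotype. The deleted bases are given 5′ to 3′ on the minus strand, the strand of the gene, with the exonic bases that the caller placed at the end moved back to the front so that the run starts at the exon border; coordinates are those of the intron, 1 to 3 bases from the deletion as called. Capitals mark the first and last 2 bases, which are GT and AG, the usual ends of an intron, in all 4.
Pold1 Val749fs, chr7:44535837-44535930: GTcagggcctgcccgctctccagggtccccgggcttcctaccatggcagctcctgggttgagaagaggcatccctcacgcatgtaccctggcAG
Pold1 Arg904fs, chr7:44534488-44534563: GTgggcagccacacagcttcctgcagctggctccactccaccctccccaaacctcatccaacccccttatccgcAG
Pold1 Arg983fs, chr7:44533798-44533884: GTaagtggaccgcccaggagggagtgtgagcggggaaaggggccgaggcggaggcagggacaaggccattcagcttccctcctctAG
Pold1 Val1039_Ser1040del, chr7:44533302-44533372: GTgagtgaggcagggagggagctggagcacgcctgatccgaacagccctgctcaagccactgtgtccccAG

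The same form was found throughout the table. Of 3956 deletions as long as 1 intron, in 1927 genes, 3947 were RNA only (99.8%), and 1784 of the 1808 that could be moved in this way ran from GT to AG (98.7%). Of all 2679 RNA-only frameshift or in-frame calls, 2099 were as long as 1 intron. The protein names of the 4 Pold1 calls are the annotation of RNA reads that lack a stretch as long as an intron.

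Calls at splice donors and acceptors of the 6 genes were made in RNA alone. All 16 of them lacked an exome genotype, where the table had 98.8% of 12303 calls in that state. In the wider splice region 6 of 17 calls had an exome genotype, 2 in Pold1 and 1 each in Ercc5, Rad23b, Msh3 and Polh. Among the 22 RNA-only insertions and deletions at splice edges 21 were insertions, 7 in Msh3, 6 in Ercc5, 4 in Polh, 3 in Pold1 and 1 in Xpa; insertions made up 84.9% of such calls in the table. The longest ones are printed on the transcript strand because each is inserted at an exon border and none was called in the exome. In the Msh3 example 68 bases were inserted at a splice acceptor and called homozygous with 20 reads, and in the Ercc5 example 60 bases were inserted at a splice donor and called heterozygous with 13 reads.
Msh3 insertion: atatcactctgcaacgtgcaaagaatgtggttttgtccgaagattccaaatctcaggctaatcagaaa
Ercc5 insertion: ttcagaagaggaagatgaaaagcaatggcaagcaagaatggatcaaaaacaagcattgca
Whether these bases belong to the neighbouring exon was not tested, because no sequence of the exons was used.

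Polh, the translesion polymerase, had 113 calls over chr17:46174741-46206668, of which 79 were RNA only, 72 of these in introns with a median of 4 reads. Its missense call, Tyr105His in exon 4 of 11 of the 694-residue protein, was heterozygous in both with 24 reads and scored 2 on BLOSUM62, an exchange common between related proteins. The synonymous calls Gly58Gly and Asp67Asp in exon 3 were heterozygous in both with 27 and 30 reads. Density was 1.44 coding calls per kb.

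The RefSeq promoter windows, 300 bases across each gene's start, held no call in Ercc5, Xpa, Rad23b, Msh3 or Pold1. In Polh the window held 1 call, annotated to the 5′ untranslated region of Xpo5, the exportin gene that starts on the opposite strand. It was heterozygous in exome and RNA with 77 reads, at base 46202860 of chromosome 17. The surrounding 29 bases are shown on the Polh strand from RefSeq GRCm38.p6, with the called reference base in capitals.
Polh promoter call, chr17:46202846-46202874: gcacagttcccctgGcgggaccacacgtt
No motif was searched in it.

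Where exome and RNA both gave a genotype they mostly gave the same. Over the 6 genes 66 of 75 calls matched, and at 20 or more RNA reads 28 of 29 did (96.6%, exact Clopper-Pearson 95% interval 82.2 to 99.9, counting error only), against 86.4% of 10549 calls in the table. All 13 such calls in Ercc5 matched, and 9 of 10 in Rad23b. Genotypes and RNA reads were among the values by which the members were chosen, and calls of 1 gene are not independent. The higher share in the 6 genes is therefore description only. Of the 99 calls with a genotype in the exome only, 42 had 0 RNA reads, against 81.4% in the table. Every protein-changing call with both genotypes matched. The 9 that differed were of both kinds. In 6 calls a heterozygous exome position was homozygous in RNA, at 3 to 10 reads: 3 in Ercc5, among them the synonymous Arg1065Arg with 10 reads, 2 in Polh and 1 in Xpa. In 3 calls a homozygous exome position was heterozygous in RNA, 2 in Rad23b at 26 and 8 reads and 1 in Polh at 7.

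**Figure D4:**
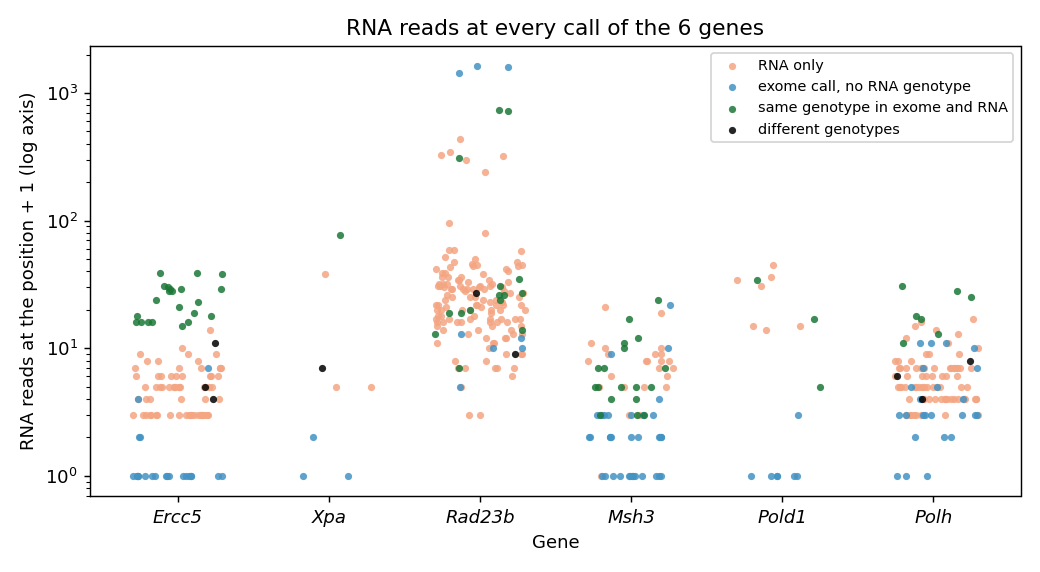
RNA reads plus 1 (log axis) at each call of the 6 genes, coloured by whether the call was RNA only, lacked an RNA genotype, or had the same or different genotypes in exome and RNA. Calls with the same genotype in both reach 38 reads in Ercc5 and 76 in Xpa, and the 3 positions with most reads, in Rad23b, lack an RNA genotype.

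Read numbers at coding calls put the genes in the order Rad23b (median 730), Xpa (76, from 1 call), Polh (27, range 24 to 30), Ercc5 (22, range 10 to 38), Pold1 (16, range 4 to 33) and Msh3 (11, range 8 to 23). Neighbours in this order overlap in their ranges from Polh on, while Polh and Msh3 do not overlap, and the range of Rad23b, 9 to 1616, overlaps all the others. These are reads over single positions of 1 library, not gene expression, and they vary with the exon and its place in the transcript. Noncoding exome calls had medians of 0 to 3 reads in the other 5 genes and 18 in Rad23b.

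Coding calls of the surrounding genes had mostly the zygosity of Msh3, Pold1, Polh and Xpa, while Ercc5 and Rad23b had too few coding neighbours to say. Within 1 Mb on each side of Msh3 all 79 coding exome calls were homozygous, 72 of them in 3 other genes, and around Pold1 375 of 388 were (96.6%, interval 94.3 to 98.2), 385 of them in 54 other genes. Around Polh 4 of 277 were homozygous (1.44%, interval 0.395 to 3.66), with 274 calls in 36 other genes. Around Xpa 0 of 20 were (upper bound of the interval 16.8%), 19 of them in 8 other genes. At the other genes 0 of 27 calls were homozygous around Ercc5, only 4 of them outside it, and 0 of 9 around Rad23b, 2 of them outside it. The intervals count each call as independent. Calls of 1 window share a stretch of chromosome in 1 library, so the intervals hold counting error only and are too narrow for linked calls.

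The chromosome as a whole differed from the stretches around Msh3, Pold1, Polh and Xpa. At Ercc5 and Rad23b most coding calls of the window are the gene's own, so their stretches are not compared. On chromosome 4, which holds both Xpa and Rad23b, 71.6% of coding exome calls were homozygous, on chromosome 7 66.1%, on chromosome 13 45.8%, on chromosome 17 30.1% and on chromosome 1 16.7%. The coding calls around Xpa were thus heterozygous on a mostly homozygous chromosome, and those around Msh3 homozygous on a mixed one. With noncoding calls included the contrast was smaller: the homozygous share within 1 Mb was 23.3% at Ercc5, 35.0% at Xpa, 51.2% at Rad23b, 89.4% at Msh3, 96.9% at Pold1 and 21.3% at Polh. Without the gene's own calls it was 31.2% at Ercc5, 36.2% at Xpa and 55.3% at Rad23b, far above the 2.13%, 0% and 8% of the exome calls inside those genes. The median noncoding call in these windows had at most 1 RNA read, but the genotypes compared here are those of the exome. Exome depth was not used here, so the difference between coding and noncoding calls was not tested further. A deletion of 1 chromosome copy and inheritance of the same allele from both parents both give homozygous calls and cannot be told apart.

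**Figure D5:**
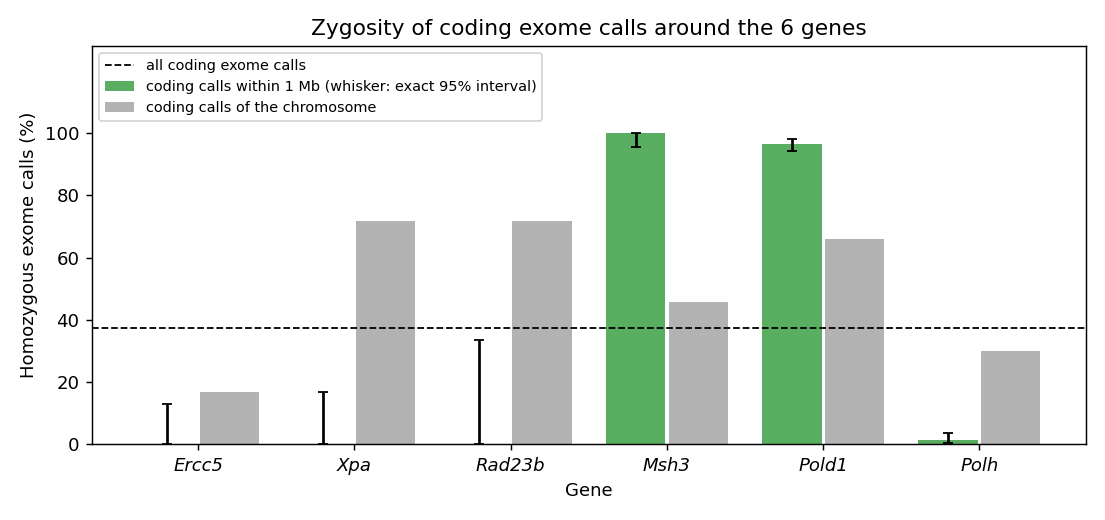
Share of coding exome calls that are homozygous (percent) within 1 Mb on each side of each gene (green, with the exact Clopper-Pearson 95% interval as whisker) and over its chromosome (grey); the dashed line is the 37.2% of all coding exome calls. Msh3 and Pold1 are at 100% and 96.6%, and the other 4 genes are at 0 to 1.44%. The gene's own calls are included, and at Ercc5 and Rad23b they are most of the calls. The whiskers count linked calls as independent and hold counting error only.

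Other genes of the same pathways were read from 4 lists. The share given for a list includes any chosen members in it, and the share over all genes with any call was 15.1%. Of 31 nucleotide excision repair genes 22 had any call and 7 a protein-changing exome call (31.8%), 3 of which are Ercc5, Xpa and Rad23b. Among the other 4, Ercc8, which recruits repair to stalled RNA polymerase, carried Val90Ile, homozygous with 2 RNA reads. Gtf2h1, a subunit of the repair helicase complex TFIIH, carried Ala543Thr, homozygous in both with 71 reads. Gtf2h3 of the same complex carried Val107Ala, heterozygous in both with 50 reads. Lig1, the ligase that seals the repaired strand and joins Okazaki fragments, carried a frameshift, Leu689fs, homozygous in exome and RNA with 15 reads.

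Of 14 mismatch repair genes 11 had any call, and only Msh3, a member chosen for such a call, had a protein-changing exome call (9.09%). Base excision repair had 3 of 18 genes with any call: Xrcc1, the scaffold of strand-break repair, with 3 homozygous changes, Parp2, a strand-break sensor, with 3 heterozygous changes, and Lig3, the partner ligase of Xrcc1, with 1 heterozygous change at 18 reads.

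DNA polymerases had 7 of 24, Pold1 and Polh among them. Polk, another translesion polymerase, carried 8 changes, 3 heterozygous and 5 homozygous, with the same genotype in RNA at all 8. Poli, the translesion polymerase closest to Polh, carried a stop, Ser47*, homozygous in exome and RNA with 28 reads, beside Leu24Ser, homozygous with 4 reads. A nonsense codon early in Poli is known from some laboratory mouse strains; whether this is the same codon was not tested. Pole2 carried Met78Val, homozygous with 6 reads, Primpol carried Ala512Asp, homozygous with 57 reads, and Poln carried 3 heterozygous changes at 0 to 2 reads.

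Lig1 and Poli were the only genes of the 4 lists with a stop or frameshift in the exome. The share of all genes with such a call was not computed, so this count has no background beside it. Over the 4 lists, with each gene counted 1 time, 18 of 74 genes with any call had a protein-changing exome call (24.3%). Without the 6 genes it was 12 of 68 (17.6%), beside 15.1% of all genes with any call. Because the 6 were chosen for carrying such a call, taking them out can only lower the share. Whether the repair lists are set apart from other genes was therefore not tested by either count.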

How the data were processed

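Exome and RNA of cultured A223 cells were read in 1 library each. BWA and GATK are named without versions in the submitters' processing notes; the genome build, annotation and filters are not given in the sources used here. The deposited table holds genotypes and, per the file headers, the RNA depth as a read count without normalization. Depth cells that are not a number (34 in all, none in the 6 genes) were treated as missing. Exome depth and allele reads were not used here.

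Calls were selected by gene name, grouped by annotated effect and compared between exome and RNA with pandas 2.3.3. Genotype agreement used 20 or more RNA reads, and windows extended 1 Mb beyond each gene's outermost calls. Intervals are exact Clopper-Pearson 95% (scipy 1.17.1) and count calls as independent, which calls of 1 gene or window are not. Classing was tested on simulated calls. The named genes are the 6 members and the other genes of 4 pathway lists with a protein-changing exome call. Members and lists were chosen with earlier results of these data known. Promoter sequence is RefSeq's, GRCm38.p6. Some items are not reported here.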

Additional observations from a re-analysis of the deposited data

How the results depend on the processing

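Of 35 alternatives 14 left the value within its interval or 1.5 times its count and 21 moved it. The 482 calls became 49 with coding calls alone and 174 with exome calls alone. Agreement of genotypes went from 96.6% to 100% at 50 or more reads (4 calls) and to 100% at protein-changing positions (15 calls). The median of 6 RNA reads over all calls became 23 over coding and untranslated calls. The homozygous share of exome calls around each gene depended on the window. Within 0.5 Mb it was 12.4% at Ercc5, 43.7% at Rad23b, 97.2% at Msh3 and 17.8% at Polh, and within 5 Mb 37.3% at Ercc5, 22.8% at Xpa, 42.6% at Rad23b, 80.7% at Msh3, 89.2% at Pold1 and 42.1% at Polh. With coding calls alone it was 0% at Ercc5, Xpa and Rad23b, 100% at Msh3 and 1.44% at Polh. Without its own calls the Ercc5 share was 31.2%. The cause of these moves was not tested. No paired analysis was possible because the exome and the RNA were 1 library each and no test was made. What exome depth limits was not tested, since no exome depth was used.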
